A study of Mus musculus with 42 samples.

Results

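A set of circadian clock genes, 9 of the 35275 genes listed for mouse cerebellum, is described here over 30 RNA-seq libraries. They were taken by symbol: the clock activators Arntl, Clock and Npas2, the nuclear receptors Rora and Rorb, the PAR bZIP factors Dbp, Tef and Hlf, and the related repressor Nfil3. Each symbol matched 1 row in both deposited count tables, and all 9 passed the filter on low counts in both.

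The mice were C57/BL6NTac males that began a feeding regimen at 3 months of age, on a diet with 18% protein, with 5 libraries in each of 6 groups. Group AL ate freely. Group IF16 had food only from 7 am to 3 pm, a daily fast of 16 h, and group EOD had food for 24 h from 7 am on alternate days. Cerebella of these groups were taken after 3 months, at 6 months of age. Groups AL-R, IF16-R and EOD-R (written with a point in the labels) kept the same 3 schedules and then all ate freely for 2 further months, to 8 months of age. The labels give no allele or agent for any of the 6 groups beyond the feeding schedule. The hour of tissue collection, the lighting schedule and the use of strand in counting are not given in the sources used here. The labels number replicates 1 to 5 but tie none to a named animal or cage, so p-values measure the spread between these samples.

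The clock runs on a feedback loop. ARNTL (BMAL1) pairs with CLOCK or its relative NPAS2, binds E-boxes and turns on the Per, Cry and Nr1d genes, whose products then hold the activators back. ROR proteins activate and NR1D proteins repress Arntl through ROREs, and the PAR bZIP proteins DBP, TEF and HLF, themselves clock outputs, activate genes through D-boxes that NFIL3 represses. Feeding time is known to set this loop in many tissues, and the level of Dbp or Arntl in one sample depends on the hour at which it was taken.

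Tef, the gene with the clearest difference between groups, has 2 promoter windows in RefSeq (build GRCm38.p6), and each holds an E-box, CACGTG, before its RefSeq start. Both windows lie inside the Tef span given with the counts, which begins at chr15:81802421. They are shown with the windows of Ciart and Per3, genes of the clock's repressor arm whose levels followed Tef most closely over the libraries. Each is printed 5′ to 3′ on the sense strand over the 250 bases before the start, with E-boxes or D-boxes in capitals.
Tef first start, plus strand, chr15:81802423-81802672: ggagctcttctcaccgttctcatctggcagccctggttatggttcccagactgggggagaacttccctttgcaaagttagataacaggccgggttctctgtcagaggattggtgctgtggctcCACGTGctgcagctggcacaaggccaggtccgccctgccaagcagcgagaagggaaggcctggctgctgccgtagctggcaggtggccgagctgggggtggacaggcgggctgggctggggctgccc
Tef second start, plus strand, chr15:81811164-81811413: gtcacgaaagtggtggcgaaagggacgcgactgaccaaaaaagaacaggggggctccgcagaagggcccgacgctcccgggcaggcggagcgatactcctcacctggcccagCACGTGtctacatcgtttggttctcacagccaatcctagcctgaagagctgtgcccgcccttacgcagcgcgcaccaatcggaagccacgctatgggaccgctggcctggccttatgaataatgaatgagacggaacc
Ciart, minus strand, chr3:95882229-95882478: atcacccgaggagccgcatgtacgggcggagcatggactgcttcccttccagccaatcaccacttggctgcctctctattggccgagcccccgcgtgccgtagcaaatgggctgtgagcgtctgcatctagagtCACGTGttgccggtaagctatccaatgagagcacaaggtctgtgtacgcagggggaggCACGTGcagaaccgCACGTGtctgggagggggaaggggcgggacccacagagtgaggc
Per3, minus strand, chr4:151044666-151044915: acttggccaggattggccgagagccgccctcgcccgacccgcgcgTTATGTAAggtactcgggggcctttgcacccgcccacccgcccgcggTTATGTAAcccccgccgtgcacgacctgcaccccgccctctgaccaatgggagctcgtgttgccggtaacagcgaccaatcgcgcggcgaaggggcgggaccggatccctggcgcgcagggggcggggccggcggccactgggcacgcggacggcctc

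The E-box of Tef begins at base -127 of the first start and at -138 of the second. Ciart has 3 E-boxes, at -116, -58 and -44, and Per3 has 2 D-boxes, at -205 and -158. Over windows from 250 bases before to 50 after each start, on both strands, the E-box occurred in 7.15% of 32851 windows, and in 2 of 14 windows of the 9 genes, both of Tef. The E-prime-box (CACGTT) occurred in 4.68% of all windows, the D-box (TTACGTAA or TTATGTAA) in 1.06%, the cAMP response element (TGACGTCA) in 1.79% and the RORE in 0.384%. No matches of different motifs overlapped in the windows of these genes. Rorb had an E-prime-box at -234 of its second start and Hlf a cAMP response element at -9. Clock, Npas2, Rora, Dbp and Nfil3 had none of the 5 motifs in their windows, which says only that these letters are not there. Arntl had a RORE 27 bases after its second start, shown in capitals because it is the element on which ROR and NR1D proteins act.
Arntl RORE, plus strand, chr7:113207527-113207556: gggaaggcagAAAGTAGGTCAgggacggag

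In the deposited tables (build mm10) Tef is ENSMUSG00000022389 at chr15:81802421-81826861, plus strand, Dbp ENSMUSG00000059824 at chr7:45705088-45710155, plus, and Hlf ENSMUSG00000003949 at chr11:90336536-90390895, minus. Arntl is ENSMUSG00000055116 at chr7:113207465-113314122, plus, Clock ENSMUSG00000029238 at chr5:76212177-76304548, minus, and Npas2 ENSMUSG00000026077 at chr1:39193731-39363234, plus. Rora is ENSMUSG00000032238 at chr9:68653786-69388246, plus, Rorb ENSMUSG00000036192 at chr19:18930605-19111196, minus, and Nfil3 ENSMUSG00000056749 at chr13:52967209-52981073, minus. Counts were summed over the whole gene, so transcript variants cannot be told apart.

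Levels between genes were compared as FPKM, reads per gene length and library size. Tef was the most abundant of the 9, at 81.4 ± 9.14 FPKM (SD, n = 30). Dbp (31.9), Hlf (23.4), Rora (20.3), Arntl (14.2), Nfil3 (12.9) and Clock (8.53) followed, then Rorb (1.17) and Npas2 (0.975). Only Tef over Dbp and Clock over Rorb were steps in this order where the ranges of all 30 libraries did not overlap. The other neighbours overlapped. CLOCK's messenger was thus far above that of its relative NPAS2, and Rora far above Rorb. The lowest Clock library had 3.84 FPKM and the highest Npas2 library 1.36.

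**Figure D1:**
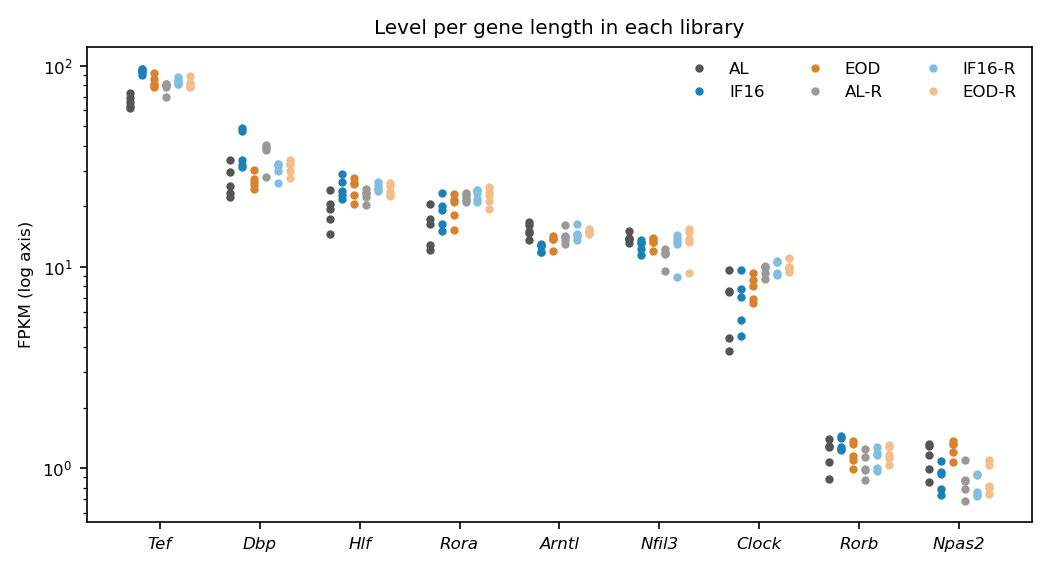
FPKM (log axis) of each gene in each library, coloured by group, in order of mean level. Tef lies above all others, from 62.0 to 96.9 FPKM, and Rorb and Npas2 lie below all others.

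Libraries held 26799825 to 36167435 counted reads. Cerebellar identity was clear from summed marker levels: Purkinje cell markers reached 4355 to 6851 CPM (counts scaled to library size, here within each table), granule cell markers 3793 to 5070, and forebrain markers only 5.15 to 11.3. Choroid plexus markers, from a tissue next to the cerebellum, ranged in sum from 33.1 to 4274 CPM, with both high and low libraries in 5 groups and 755 or more in every EOD library. In addition, libraries differed in the slope of gene level on gene length (the length gradient, log2 CPM per log2 of length). It ran from -0.158 to 0.0575 in AL, -0.114 to 0.0636 in IF16 and -0.0159 to 0.139 in EOD, but only from -0.0261 to 0.0416 in the refed groups. Values beside each result show where these measures moved with it. In bulk tissue, fewer cells of a type and less RNA per cell cannot be told apart.

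**Figure D2:**
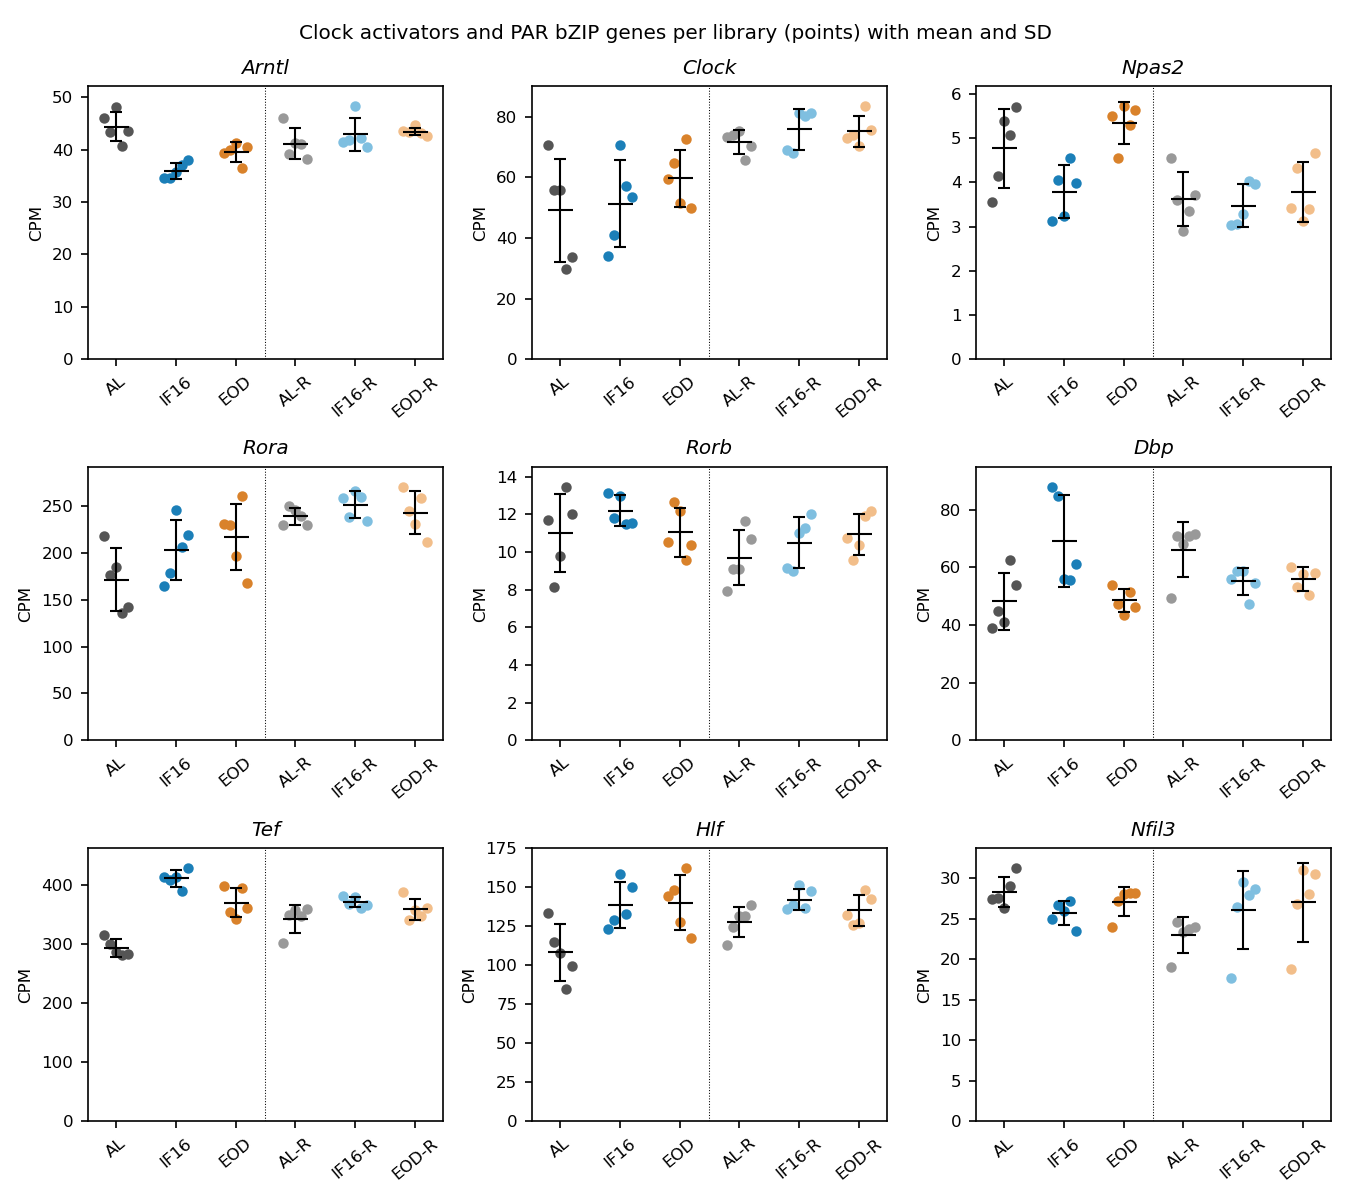
CPM of each gene in each library (points) by group, with the mean and SD; the dotted line separates the tables of the regimens and of refeeding, which were scaled separately. Tef is higher in IF16 and EOD than in AL with no overlap, and Clock and Rora spread more widely within each of the 3 regimen groups than within each refed group.

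At the end of the regimens, Tef rose in both fasting groups, and no other of the 9 genes passed the test. The AL libraries had 316, 301, 287, 281 and 283 CPM of Tef. The IF16 libraries had 414, 409.7, 415, 391 and 429 CPM. The EOD libraries had 399, 355, 342, 395 and 362 CPM. Every IF16 and every EOD library was above every AL library. The AL mean was 294 ± 14.6 CPM, the IF16 mean 412 ± 13.8 and the EOD mean 371 ± 25.2 (SD, n = 5 each). Tef had a log2 fold change of 0.49 (SE 0.0594), or 1.40-fold, in IF16, with an adjusted p of 0.00174 in edgeR's quasi-likelihood test over all genes. In EOD it was 0.34 (SE 0.0593), or 1.26-fold, with an adjusted p of 0.0485. Tef stayed called in IF16 without any 1 library of either group, with adjusted p from 0.00361 to 0.0152. In EOD it was not called when any 1 of the 10 AL or EOD libraries was left out (adjusted p 0.0540 to 0.239), although the log2 fold change stayed between 0.31 and 0.37. IF16 and EOD share the AL libraries, so their rises are not independent. Choroid plexus markers were high in all EOD libraries but not in all AL libraries, and with their score as a covariate the EOD value was 0.36 (adjusted p = 0.0270). The length gradient was also higher in EOD than in AL on average, with overlap. With the gradient as a covariate the EOD value was 0.29 and no longer called (adjusted p = 0.0527), and without the 4 libraries with a gradient beyond 0.1 in size it was 0.27 (adjusted p = 0.386).

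This 1 call of 9 compares with 0.0483% of all 16577 genes tested in IF16 and 0.0664% in EOD. At an unadjusted p under 0.05, 5 of the 9 genes differed in IF16 (3 higher, 2 lower), against 9.92% of all genes. In EOD, 4 of 9 did (3 higher, 1 lower), against 14.4%. Groups did not overlap for 2 of the 9 in IF16, Tef and Arntl, against 1.55% of genes, and for 1 in EOD, Tef, against 2.9%. The median log2 fold change of the 9 was 0.15 in IF16 and 0.16 in EOD, beside -0.01 and -0.02 over all genes. The 9 were chosen with earlier results of these data known, so these counts are a description and not a separate test.

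Among the activators, Arntl lay lower in IF16, without passing the adjusted threshold. AL libraries held 46.0, 43.4, 48.1, 40.8 and 43.6 CPM of Arntl. IF16 libraries held 34.6, 34.5, 35.8, 37.1 and 38.0 CPM, all below every AL library. EOD libraries, with 39.3, 39.9, 41.2, 36.4 and 40.6 CPM, overlapped AL in 1 value. The log2 fold change of Arntl was -0.30 (SE 0.0600, unadjusted p = 0.00011, adjusted p = 0.103 in edgeR) in IF16 and -0.17 (SE 0.0599, adjusted p = 0.314) in EOD. With the length gradient as a covariate the IF16 value was -0.31, with an adjusted p of 0.0169. Without the 4 libraries with a gradient beyond 0.1 in size it was -0.34 and not called (edgeR adjusted p = 0.0894).

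Npas2, the partner of ARNTL that can stand in for CLOCK, had 3.56, 4.14, 5.40, 5.06 and 5.70 CPM in AL. IF16 libraries had 3.12, 4.05, 3.25, 4.54 and 3.997 CPM, and EOD libraries 5.49, 4.54, 5.72, 5.30 and 5.65 CPM. Npas2 overlapped between AL and each regimen, whereas the lowest EOD library lay just above the highest IF16 library, both near 4.54 CPM. These values rest on 104 to 202 reads per library. Npas2 had a log2 fold change of -0.33 (SE 0.139, adjusted p = 0.465) in IF16 and 0.16 (SE 0.138, adjusted p = 0.516) in EOD.

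Clock itself varied widely within groups. AL libraries had 70.5, 55.7, 55.7, 29.6 and 33.7 CPM of Clock, a coefficient of variation of 34.7%. In IF16 the values were 34.0, 40.9, 70.6, 57.2 and 53.3 CPM, and in EOD 59.5, 64.7, 51.6, 72.6 and 49.8 CPM. All 3 groups overlapped. Its log2 fold change was 0.06 (SE 0.223) in IF16 and 0.28 (SE 0.222) in EOD, and the EOD value turned to -0.08 once the gradient was a covariate. In the refed groups the coefficient of variation of Clock was 5.42% to 8.86%.

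Rora, which activates Arntl and is needed for Purkinje cell development, ranged from 135 to 218 CPM in AL, 165 to 246 in IF16 and 168 to 261 in EOD. Its log2 fold change was 0.24 (SE 0.143, adjusted p = 0.565) in IF16 and 0.34 (SE 0.143, adjusted p = 0.327) in EOD. Rorb ranged from 8.14 to 13.4 CPM in AL, 11.5 to 13.1 in IF16 and 9.55 to 12.7 in EOD. Its log2 fold change was 0.15 (SE 0.120) in IF16 and 0.01 (SE 0.121) in EOD. Neither receptor separated the groups.

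Of the PAR bZIP genes other than Tef, Dbp was higher on average in IF16 and Hlf in both regimens, and neither passed the adjusted threshold. Dbp in AL was at 38.9, 44.9, 40.9, 62.6 and 53.9 CPM. In IF16 it was at 87.7, 84.6, 55.8, 55.5 and 61.2 CPM, so 2 libraries lay far above the rest. In EOD it was at 53.8, 47.4, 43.5, 51.3 and 46.3 CPM, inside the AL range. The log2 fold change of Dbp was 0.52 (SE 0.148, unadjusted p = 0.0029, adjusted p = 0.294) in IF16 and 0.01 (SE 0.148, adjusted p = 0.982) in EOD. The 2 AL libraries and the 2 IF16 libraries with the lowest length gradients were the 2 highest for Dbp in their groups. With that gradient as a covariate the IF16 log2 fold change was 0.61, with an adjusted p of 0.0218. Without the 4 libraries with a gradient beyond 0.1 in size it was 0.63 and not called (edgeR adjusted p = 0.147).

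Hlf in AL had 134, 115, 108, 84.9 and 99.3 CPM. In IF16 it had 123, 129, 158, 133 and 150.1 CPM, and in EOD 144, 148, 128, 162 and 118 CPM. Apart from AL replicate 1, every AL library was below every library of both regimens. The share of all genes separated in this way was not counted. AL replicate 1 also had the lowest choroid plexus score in AL, 0.741 against 3.48 to 4.74 in the others. Less the group means, Hlf had r = -0.61 with this score over the 30 libraries. Hlf differed by a log2 fold change of 0.36 (SE 0.114, adjusted p = 0.348) in IF16 and 0.37 (SE 0.114, adjusted p = 0.261) in EOD. With the length gradient as a covariate it was 0.28 (adjusted p = 0.0341) and 0.19 (adjusted p = 0.362). Without the 4 libraries with a gradient beyond 0.1 in size, Hlf was called in neither. Its values were then 0.26 in IF16 (edgeR adjusted p = 0.485) and 0.17 in EOD (edgeR adjusted p = 0.765). Nfil3, which competes with the PAR bZIP proteins at D-boxes, ranged from 26.3 to 31.2 CPM in AL, 23.4 to 27.2 in IF16 and 24.0 to 28.2 in EOD. Its log2 fold change was -0.14 (SE 0.0687, adjusted p = 0.517) in IF16 and -0.06 (SE 0.0687, adjusted p = 0.623) in EOD.

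**Figure D3:**
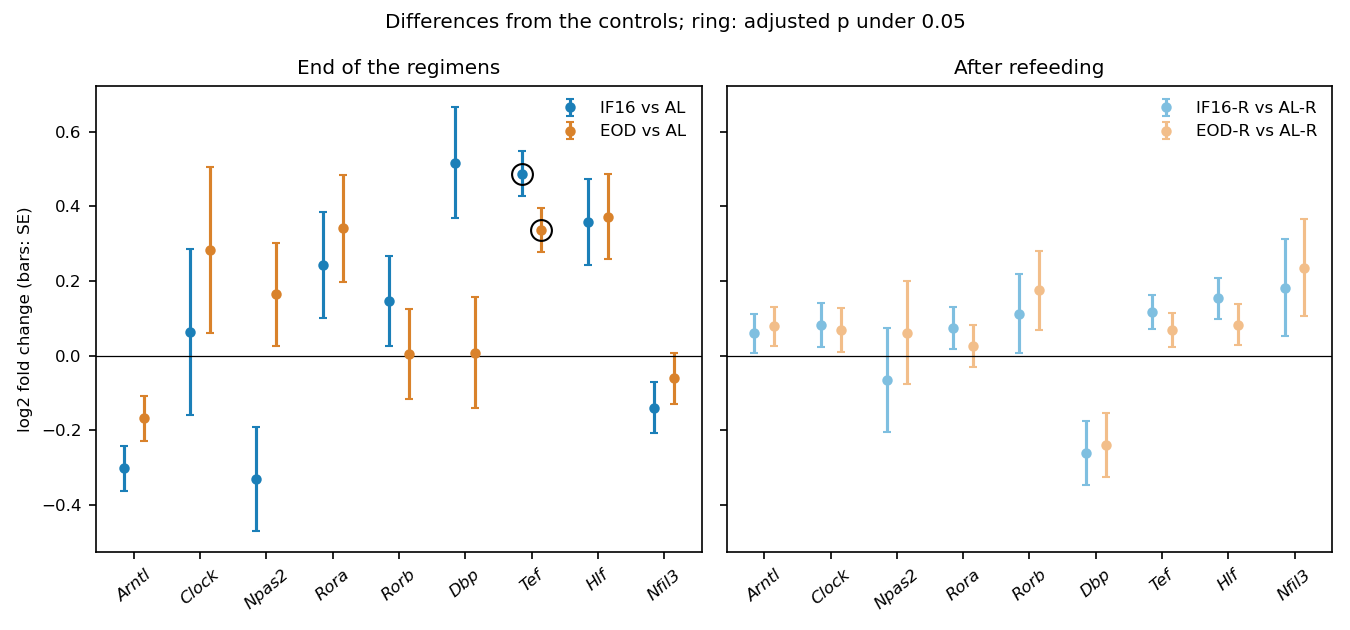
Log2 fold change (SE bars) of each gene against the freely fed controls, after the regimens (left) and after refeeding (right); a ring marks an adjusted p under 0.05. Only Tef is ringed, in IF16 and EOD, and after refeeding Tef lies at 0.12 and 0.07 and Dbp below 0 in both groups.

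The EOD and IF16 groups were also compared with each other, and 0 of the 9 genes and 0% of all genes passed the adjusted threshold in edgeR. In DESeq2 it was 1 gene and none of the 9. At an unadjusted p under 0.05, 4 of the 9 differed (2 higher in EOD, 2 lower), against 3.62% of all genes. Npas2 was higher in EOD, with a log2 difference of 0.49 (SE 0.139, unadjusted p = 0.00256), and Dbp lower, at -0.51 (SE 0.148, unadjusted p = 0.00326). These were the 2 genes whose groups did not overlap, against 0.688% of all genes, and the adjusted p was 0.977 for both. Arntl was higher in EOD by 0.13 (SE 0.0601) and Tef lower, at -0.15 (SE 0.0592).

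After refeeding, none of the 9 genes passed the adjusted threshold in edgeR in IF16-R or EOD-R. Over all 16444 genes tested the shares called were 0.17% and 0.0426%. Tef had 301, 349, 358, 348 and 359 CPM in AL-R. IF16-R libraries had 382, 368, 380.4, 362 and 367 CPM, and EOD-R libraries 388, 341, 359, 349 and 362 CPM. IF16-R still lay above AL-R in every library, by a narrow gap, and EOD-R overlapped. The log2 fold change of Tef was 0.12 (SE 0.0455, adjusted p = 0.421) in IF16-R and 0.07 (SE 0.0455, adjusted p = 0.728) in EOD-R. Without AL-R replicate 1, the lowest library, these became 0.07 and 0.02. AL-R replicate 1 also had the highest choroid plexus score in AL-R, 4.38 against 0.605 to 2.03 in the others.

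Dbp was on the other side of the controls. AL-R libraries had 49.2, 70.9, 67.9, 70.7 and 71.5 CPM of Dbp. IF16-R libraries had 56.1, 58.6, 58.9, 47.4 and 54.6 CPM, and EOD-R libraries 60.2, 53.3, 57.6, 50.3 and 58.2 CPM. Apart from AL-R replicate 1, every AL-R library was above every library of both refed groups. AL-R replicate 1 is the AL-R library with the highest choroid plexus score. The share of all genes separated in this way was not counted. Dbp had a log2 fold change of -0.26 (SE 0.0857, adjusted p = 0.341) in IF16-R and -0.24 (SE 0.0857, adjusted p = 0.430) in EOD-R, against the same controls. Without AL-R replicate 1 it was -0.35 (adjusted p = 0.0537) and -0.33 (adjusted p = 0.0963).

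Hlf ranged from 113 to 138 CPM in AL-R, 136 to 151 in IF16-R and 126 to 149 in EOD-R, with log2 fold changes of 0.15 (SE 0.0545, adjusted p = 0.352) and 0.08 (SE 0.0545, adjusted p = 0.720). Arntl was at 41.2 ± 3.04, 42.9 ± 3.09 and 43.4 ± 0.736 CPM in AL-R, IF16-R and EOD-R (SD, n = 5 each). Clock was at 71.7 ± 3.89, 75.8 ± 6.72 and 75.1 ± 5.02 CPM. Rora was at 239 ± 9.51, 251 ± 14.3 and 243 ± 22.9 CPM. These activators and the receptor differed from their controls by log2 values of 0.02 to 0.08. Nfil3 was at 22.9 ± 2.24, 26.1 ± 4.79 and 27.0 ± 4.91 CPM, with replicate 1 the lowest library in each group. Its log2 fold change was 0.18 (SE 0.130) in IF16-R and 0.24 (SE 0.130) in EOD-R. At an unadjusted p under 0.05, 3 of 9 genes differed in IF16-R (2 higher, 1 lower) and 1, Dbp, in EOD-R. The shares over all genes were 9.58% and 8.5%. Groups did not overlap for 1 gene, Tef, in IF16-R and for none in EOD-R, against 2.18% and 1.87%. EOD-R and IF16-R differed from each other in none of the 9 genes, either at the adjusted threshold (0.0182% of all genes), at an unadjusted p under 0.05 (9.75%) or by ranges that did not overlap (1.26%).

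Whether the effect of a regimen changed after refeeding was tested as a difference of log2 fold changes over all 30 libraries. The earlier and later groups also differ in age and in table, so a change with refeeding cannot be told apart from these. The freely fed controls moved too: in AL-R against AL the log2 fold change was 0.22 for Tef and 0.45 for Dbp. For IF16, Tef passed: its effect was smaller after refeeding by -0.37 (SE 0.0730, adjusted p = 0.0454), against 0.0474% of 16877 genes called. On the scale of each table the AL mean of 294 CPM compares with 343 ± 23.8 in AL-R, and the IF16 mean of 412 with 372 ± 8.90 in IF16-R. The call was kept in 4 of the 20 fits that left out 1 library, with adjusted p from 0.00611 to 0.138. Dbp changed by -0.78 (SE 0.178, adjusted p = 0.137) and Arntl by 0.36 (SE 0.0806, adjusted p = 0.106), neither past the threshold. Both passed with the length gradient as a covariate, with adjusted p of 0.00859 for Dbp and 0.0275 for Arntl. At an unadjusted p under 0.05, 4 of 9 genes changed (2 up, 2 down), against 7.21% of all genes. For EOD, none of the 9 passed in edgeR, against 0.0119% of all genes, and 3 of 9 had an unadjusted p under 0.05, against 10.3%. Tef changed by -0.27 (SE 0.0730, adjusted p = 0.288), Arntl by 0.24 (SE 0.0806, adjusted p = 0.392) and Hlf by -0.29 (SE 0.132, adjusted p = 0.468).

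The freely fed controls of the tables were compared over a joint scaling. AL-R differs from AL in age, 8 against 6 months, and in table, and these cannot be told apart. In this comparison 6 of the 9 genes passed the threshold, against 23.9% of all genes, and 7 of 9 had an unadjusted p under 0.05, against 40%. Rora was higher in AL-R, at 239 ± 9.55 CPM against 172 ± 34.8 (SD, n = 5 each), with no overlap and a log2 fold change of 0.47 (SE 0.114, adjusted p = 0.00846). Nfil3 was lower with no overlap, at 22.9 ± 2.20 against 28.3 ± 1.73 CPM (log2 fold change -0.31, SE 0.111, adjusted p = 0.0439). Over all genes 9.72% had ranges that did not overlap. Clock (0.54, SE 0.172), Dbp (0.45, SE 0.126) and Tef (0.22, SE 0.0517) were also higher, and Npas2 (-0.40, SE 0.141) lower, on the log2 scale. The length gradient moved with this comparison: 2 AL libraries were below -0.1 and no AL-R library was below -0.0257. Cell type markers moved with it too. Of the oligodendrocyte markers 3 of 6 were called lower, and their sum was 4908 to 5456 CPM in AL-R against 5557 to 6586 in AL. Of the Purkinje cell markers 3 of 8 were called higher, and their sum was 6047 to 6258 against 4355 to 5572 CPM, each on the scale of its table. Red blood cell markers had 3 of 5 called higher, with a median log2 fold change of 1.18, and choroid plexus markers had a median of -1.40 with none of 10 called. Over all genes 11.5% were called higher and 12.4% lower. With the choroid plexus score as a covariate 3 of the 9 genes were called, Rora, Dbp and Tef. The part of the other markers was not tested. Without the 4 libraries of the regimens with a gradient beyond 0.1 in size, only Dbp was called, and with AL and AL-R alone in the fit none was (adjusted p 0.0597 for Rora, 0.0639 for Nfil3 and 0.0688 for Tef).

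Other genes of the loop were read from lists of known members, chosen with earlier results of these data known. Their counts beside the shares over all genes are a description and not a separate test. In the repressor arm (Per1, Per2, Per3, Cry1, Cry2, Nr1d1, Nr1d2, Ciart, Bhlhe40 and Bhlhe41), 2 of 10 rose in IF16, against 0.0362% of all genes called higher. All 10 were higher at an unadjusted p under 0.05, against 4.35% of all genes. Their median log2 fold change was 0.37, beside -0.01 over all genes. Ciart rose by 0.89 (SE 0.107, adjusted p = 0.00174), from 11.04 ± 1.09 to 20.4 ± 2.88 CPM, and Per1 by 0.73 (SE 0.123, adjusted p = 0.0451), from 110.3 ± 16.0 to 182 ± 25.8 CPM. In EOD, 1 of 10 rose, Per1, by 0.72 (SE 0.123, adjusted p = 0.0436), against 0.0543% of all genes called higher. In all, 8 of 10 were higher at an unadjusted p under 0.05, against 7.02% of all genes, and the median was 0.22, beside -0.02 over all genes. After refeeding none of the 10 passed in either group, with medians of 0.09 in IF16-R and 0.04 in EOD-R beside -0.0023 and 0.00067 over all genes, and the IF16 effect on Ciart was smaller by -0.89 (SE 0.131, adjusted p = 0.00301). In AL-R against AL, where age and table cannot be told apart, 4 of 10 were called higher (Per3, Nr1d1, Nr1d2 and Ciart, by 0.27 to 0.42), against 11.5% of all genes.

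Of 8 genes whose products modify clock proteins, none passed in a regimen or after refeeding. The nearest, the deubiquitinase gene Usp2, had a log2 fold change of 0.41 (SE 0.0817, adjusted p = 0.103) in IF16 and 0.39 (SE 0.0817, adjusted p = 0.136) in EOD. The relative Arntl2 did not pass either. Of 8 known PAR bZIP targets and further outputs, 6 had enough reads to test (Pdxk, Por, Alas1, Nr1i3, Ppara and Wee1), and none passed. Their median log2 fold change was 0.03 in IF16 and 0.04 in EOD. Wee1, a cell cycle kinase gene, was nearest, at 0.30 (SE 0.138, adjusted p = 0.499) and 0.36 (SE 0.138, adjusted p = 0.317). The enzyme gene Pdxk, a target of the PAR bZIP proteins, was at 0.08 (SE 0.0614) in both.

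How the 9 genes varied together was measured as correlations of log2 CPM, less the group mean, over the 30 libraries. Of 36 pairs, 7 had an adjusted p under 0.05 (Benjamini-Hochberg over the 36, permutation within groups). Clock, Rora and Hlf formed 3 of them: Clock and Rora had r = 0.87 (rho 0.80, adjusted permutation p = 0.00036), Clock and Hlf r = 0.82 (rho 0.77) and Rora and Hlf r = 0.80 (rho 0.72). Within the table of refeeding these were 0.21, 0.36 and -0.01, and after adjustment for the length gradient 0.12, 0.05 and 0.17. All 3 genes are long transcripts, of 5642 to 10878 bases, and the length gradient itself had r = 0.95 with Clock (rho 0.95), 0.90 with Rora (rho 0.86) and 0.85 with Hlf (rho 0.80). For each of these r the permutation p was 1e-05, the smallest the permutations can give, and 6e-05 adjusted. Leaving out the 2 most extreme gradients gave r of 0.92, 0.88 and 0.82, and the table of refeeding alone gave 0.73, 0.52 and 0.47. The short transcript of Dbp, of 1789 bases, had r = -0.58 (rho -0.52, permutation p = 0.012, adjusted p = 0.036) with the gradient, and -0.36 without those 2 libraries. For Dbp this r was -0.70 among the regimens and 0.06 among the refed groups, and the adjusted permutation p of rho was 0.057. Length did not order all 9 genes this way. Rorb, with 9293 bases the second longest, had r = -0.33 with the gradient (rho -0.26, adjusted permutation p = 0.27), and -0.52 among the regimens. The short transcripts of Nfil3 (2026 bases) and Arntl (2904 bases) had r = -0.09 (rho -0.19) and 0.20 (rho 0.22), Npas2 had -0.21 (rho -0.21) and Tef 0.42 (rho 0.40), none with an adjusted p under 0.05. Of 18 such relations of the 9 genes with library measures, the choroid plexus score had r = -0.61 (rho -0.61, permutation p = 0.00044, adjusted p = 0.002) with Hlf and -0.52 (rho -0.45, permutation p = 0.0051, adjusted p = 0.018) with Tef. Without the 2 libraries farthest from the median score these were -0.49 and -0.34. By rank, the adjusted permutation p of rho was 0.0028 for Hlf and 0.057 for Tef. The part of these measures in the correlations was not tested beyond the adjusted values.

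Arntl and Dbp, on opposite phases of the clock in textbook accounts, went in opposite directions, with r = -0.59 (rho -0.59, permutation p = 0.0025, adjusted p = 0.018). The value was -0.76 among the regimens, -0.42 among the refed groups, -0.61 after adjustment for the length gradient and -0.65 without the 2 libraries farthest from the median of Arntl. Clock and Dbp had r = -0.71 (rho -0.64, adjusted permutation p = 0.016), with -0.81 and -0.39 within the tables and -0.58 after adjustment. Tef and Hlf had r = 0.58 (rho 0.57, adjusted permutation p = 0.018), with 0.67 and 0.50 within the tables and 0.51 after adjustment. This pair was called in neither table alone nor after adjustment (adjusted permutation p 0.094, 0.54 and 0.12). As given above, Tef and Hlf both had a negative r with the choroid plexus score. Npas2 and Tef had r = -0.52 (rho -0.52, adjusted permutation p = 0.031), and -0.36 after adjustment (adjusted permutation p = 0.21). Dbp and Tef had r = 0.32 (adjusted permutation p = 0.26), made of -0.01 among the regimens and 0.87 among the refed groups, and 0.70 after adjustment. Rorb and Hlf had r = 0.01 (rho 0.08), made of -0.33 among the regimens and 0.77 among the refed groups, and 0.60 after adjustment. Without the 2 libraries farthest from the median, the other pairs called had r of 0.82 (Clock and Rora), 0.72 (Clock and Hlf), 0.72 (Rora and Hlf), -0.62 (Clock and Dbp), 0.53 (Tef and Hlf) and -0.43 (Npas2 and Tef).

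**Figure D4:**
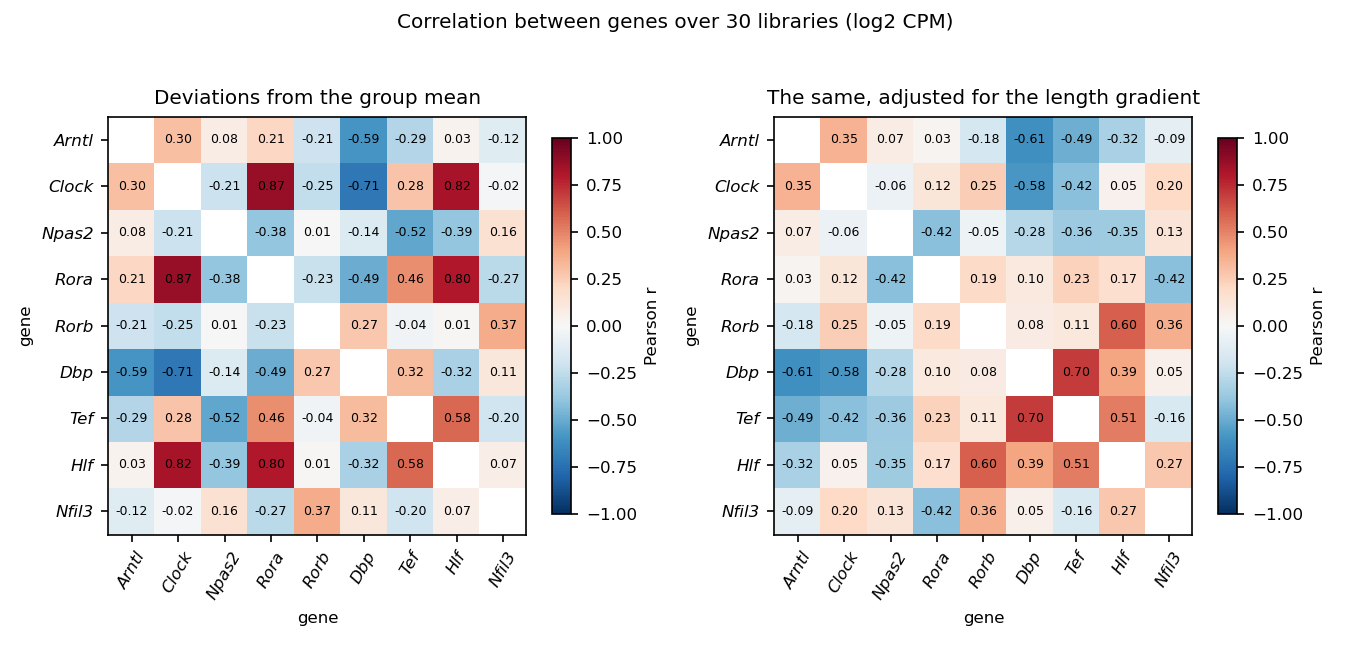
Pearson r between genes over 30 libraries, of log2 CPM less the group mean (left) and after adjustment for the length gradient (right). The block of Clock, Rora and Hlf fades on the right, while Arntl and Dbp stay at about -0.6 (-0.59 and -0.61) and Dbp and Tef reach 0.70.

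**Figure D5:**
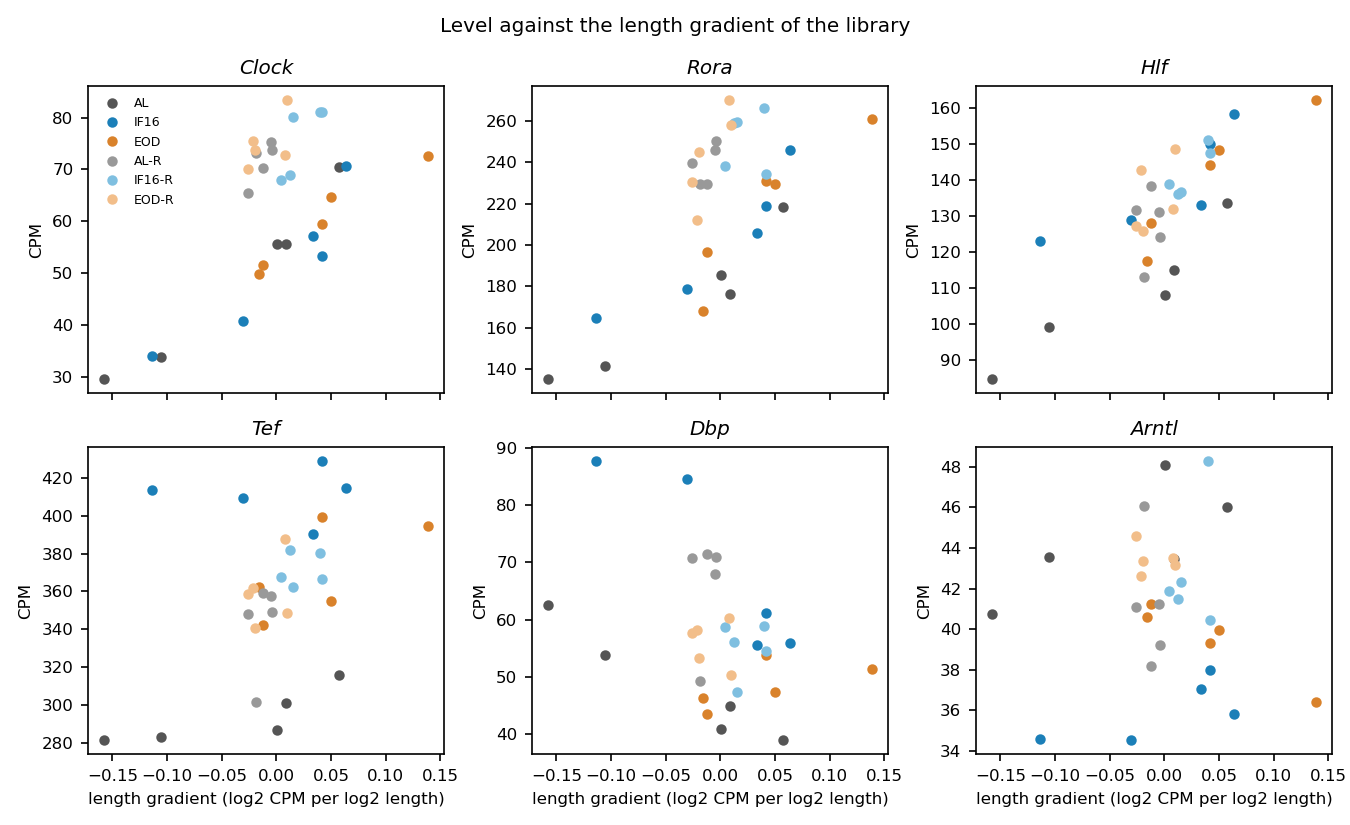
CPM of 6 genes against the length gradient of each library, coloured by group. Clock, Rora and Hlf climb with the gradient, whereas the IF16 libraries of Tef lie above the AL libraries at low and high gradients alike.

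Genes with the most similar profile over the 30 libraries were found among 12853 protein-coding genes, by r of log2 CPM less the mean of the table, which includes differences between groups. For Tef these were Ciart (r = 0.89), Per3 (0.87) and Mthfd1l (0.86). Ciart averaged 11.04 ± 1.09 CPM under AL, 20.4 ± 2.88 under IF16 and 15.5 ± 1.68 under EOD (SD, n = 5 each), the same order of groups as Tef, and 14.7 in each refed group on average. Ciart was chosen on values that keep the differences between groups, so the shared order is not a separate result. Its r with Tef was 0.93 among the regimens and 0.58 among the refed groups. For Dbp they were Zfp566 (0.79), the clock repressor gene Nr1d1 (0.77) and Dgat2 (0.73), and for Arntl Mmp14 (0.73), Fzd8 (0.68) and Vstm4 (0.67). Clock was nearest to Tenm1 (0.97), Usp34 (0.97) and Vps13c (0.97), Rora to Pura (0.96), Slc24a2 (0.96) and Ppp1r9a (0.95), and Hlf to Txndc16 (0.94), with Ankib1 (0.92) also among its nearest. These profiles were not adjusted for the length gradient, which less the group means had r of 0.95 with Clock, 0.90 with Rora and 0.85 with Hlf. Among the refed groups the likenesses were 0.79 to 0.91 for Clock and 0.68 to 0.74 for Rora. For Hlf they were 0.79 (Txndc16) and 0.78 (Ankib1). Npas2 was nearest to Mrps2 (0.68), Rorb to Ebp (0.82) and Nfil3 to Tm6sf2 (0.82). Among the nearest genes named here, only Ciart and Per3 (for Tef) and Nr1d1 (for Dbp) are in the repressor arm listed above. For Nfil3 the likeness to Tm6sf2 was 0.52 among the regimens and 0.89 among the refed groups.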

How the data were processed

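RNA-seq of 30 cerebellum libraries was read from 2 deposited tables, one of the regimens and one of refeeding, each with raw counts and FPKM per gene. Per the submitters' processing notes the tools were STAR 2.5, HTSeq 0.6.1 and DESeq2 (version given as 2), with build mm10; their order and the annotation release are not given in the sources used here. The deposited FPKM equal count per gene length and library total. The 12 chromatin libraries were not analysed here. Counts were tested with edgeR 4.0.16 (R 4.3.3; filterByExpr, TMM, quasi-likelihood) over all genes of a table, or of both for changes after refeeding and for AL-R against AL, with Benjamini-Hochberg adjustment and calls at an adjusted p under 0.05. SE is the log2 fold change divided by the root of F. CPM are TMM-scaled within a table. Correlations used log2 CPM with a prior count of 2 and 100000 permutations within groups. The length gradient is the slope of a library's log2 CPM deviations on log2 gene length. Members and lists were chosen with earlier results of these data known. Named genes are the 9, the called or nearest genes of the lists in the regimen comparisons, and up to 3 of the most similar genes of each; a few genes are not reported here. The edgeR script was tested on simulated data. Alternatives were DESeq2 1.42.0, RLE, other filters, covariates, a replicate block and leaving out libraries. No libraries were duplicates. Promoter windows and their coordinates are RefSeq's (GRCm38.p6), of which all 9 genes had at least 1.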

Additional observations from a re-analysis of the deposited data

Results flagged for a closer look

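Tef is listed because its IF16 effect differed before and after refeeding in a direct test, by -0.37 on the log2 scale. In addition, 6 of 54 sets of 5 libraries held 1 library far from the other 4, by Dixon's criterion of a gap above 0.71 of the range, which chance meets in about 5% of sets. AL-R replicate 1 met this criterion as the lowest for 3 genes: Dbp at 49.2 CPM (next 67.9), Tef at 301 CPM (next 348) and Nfil3 at 19.0 CPM (next 23.4). Without meeting it, this library was also the lowest in AL-R for Hlf (113 CPM, next 124), Rorb (7.94, next 9.07) and Rora (229.2, next 229.6). It was the highest there for Arntl (46.1 CPM, next 41.3) and Npas2 (4.56, next 3.72). Its choroid plexus score, 4.38, was the highest in AL-R. Nfil3 was also lowest in replicate 1 of IF16-R, at 17.7 CPM (next 26.4), and in replicate 1 of EOD, at 24.0 CPM (next 27.2). Arntl was highest in IF16-R replicate 3, at 48.3 CPM (next 42.3). Without AL-R replicate 1, the change of the IF16 effect after refeeding was -0.41 for Tef, -0.87 for Dbp and 0.40 for Arntl, with edgeR adjusted p of 0.00611, 0.0273 and 0.0308. Without IF16-R replicate 3 these were -0.38, -0.81 and 0.31, with edgeR adjusted p of 0.0755, 0.160 and 0.325. Tef then lost its call. Without IF16-R replicate 1 they were -0.38, -0.78 and 0.38, with edgeR adjusted p of 0.0450, 0.111 and 0.0797, and only Tef was called.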

How the results depend on the processing

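Tef kept its call in IF16 against AL under every alternative run, but other calls moved. In IF16 against AL, 2 of the 9 genes were called by DESeq2 (Arntl and Tef) and 4 with the length gradient as a covariate (Arntl, Dbp, Tef and Hlf). In EOD against AL, 0 were called with RLE scaling, with no filter on low counts, with the gradient, with the replicate block, with only the groups compared, without the 4 libraries with a gradient beyond 0.1 (AL 4, AL 5, IF16 1 and EOD 4, left out after seeing the data) and in the leave-one-out fits (0 to 0); the adjusted p of Tef reached 0.386. For the change of the IF16 effect, DESeq2 and the gradient each called 3, RLE, no filter, the replicate block and only the groups compared called 0, leaving out 1 library 0 to 3, and leaving out the 4 libraries 2 (Arntl and Dbp). In AL-R against AL, main 6, it was 3 with the choroid plexus score, 0 with only the groups compared, 3 to 7 without 1 library and 1 without the 4. Of 36 pairs, 7 were called over all libraries. After gradient adjustment 4 were called, of which 2 are among those 7 (Arntl and Dbp, Clock and Dbp). In the refeeding table alone 2 were called, 0 of them among the 7. Dbp and Tef and Rorb and Hlf were called in both of these alternatives. Values reversed with the gradient for Clock in EOD against AL (-0.079, and -0.11 without the 4 libraries), for Clock (-0.10), Rora (-0.051) and Rorb (-0.021) in IF16-R against AL-R and for Hlf in EOD-R against IF16-R (0.031); without the 4 libraries Rorb reversed in the change of the EOD effect (-0.033). Signs of 59 further values, all below their SE, differed among 1692. The cause was not tested.

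Same-numbered replicates correlated from -0.53 to 0.43 over 30 pairs, 11 above 0.1 and 7 best with their own number. They ran from -0.53 to 0.32 among the regimens and from -0.05 to 0.43 among the refed groups. The numbers were not taken as pairs, but whether refed libraries of the same number share a factor was not tested. With the replicate block, 95 genes were called in IF16-R against AL-R. It gave 45 in EOD-R against AL-R and 40 in EOD-R against IF16-R. Besides the replicate block losses above, the block changed no other count of the 9. Over all genes the count called ranged across alternatives from 3 to 94 in IF16 against AL (8 in the fit reported), 2 to 133 in EOD against AL (11), 0 to 1 in EOD against IF16 (0), 0 to 105 in IF16-R against AL-R (28), 0 to 87 in EOD-R against AL-R (7), 0 to 123 in EOD-R against IF16-R (3), 4 to 34 and 0 to 14 for the changes of the IF16 (8) and EOD (2) effects, and 28 to 6173 in AL-R against AL (4030). DESeq2 gave the highest count in the first 6. Depth limits Npas2 and Rorb most, at 89 to 202 and 258 to 444 reads per library.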

Other observations

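Nfil3 was lower in replicate 1 than in any other replicate in all 3 refed groups, at log2 CPM of 4.25 (AL-R), 4.15 (IF16-R) and 4.24 (EOD-R), while the other 12 refed libraries lay between 4.55 and 4.96. The 3 genes most similar to Nfil3, which were chosen on these same libraries, showed the same order. Tm6sf2 was at 1.37, 1.43 and 1.62 in replicate 1, against 2.16 to 2.86 in the other 12. Hexim1, an inhibitor of the transcription elongation factor P-TEFb, was at 6.23, 6.14 and 6.28, against 6.38 to 6.65. Aktip was at 6.62, 6.65 and 6.70, against 6.72 to 6.92. In the libraries of the regimens, replicate 1 of AL, IF16 and EOD lay within the range of the other 12 for Nfil3, at 4.78, 4.65 and 4.59 against 4.55 to 4.97. The same held there for Hexim1 and Aktip. Tm6sf2 was at 2.31, 2.06 and 2.05, so that replicate 1 of IF16 and EOD lay below the other 12 (2.16 to 2.86) here too. What replicate 1 of the refed groups shares is not given in the sources used here.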
